A study of Drosophila melanogaster with 24 samples.

Results

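The 8 genes described here make or break down juvenile hormone or are induced by it: jhamt, Fpps, Jhe, Jhedup, Jheh1, Jheh2, Jheh3 and JhI-26. They were chosen by symbol, and all 8 have a row among the 13234 genes of the authors' deposited table. RNA was measured in the fat body, an organ of insects with the roles of both liver and adipose tissue, of w1118 Drosophila melanogaster. The flies were virgin females, moved to their condition within 8 hours of eclosion and held there for 25 days. There were 4 groups of 6 libraries: 11 °C with ethanol, 11 °C with S-methoprene, 25 °C with ethanol and 25 °C with S-methoprene, an analogue of juvenile hormone given as vapour. Ethanol was the vehicle, so flies of all 4 groups received it, in 10 µL once every 2 days, and the labels give the S-methoprene in it as 39.4 mm, a unit printed here as they spell it. Each library pooled 25 flies, and a fly was used only if its ovaries had the size called for by its condition, which was regressed for ethanol at 11 °C and large otherwise. Ovary state therefore differs between the groups by selection.

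The authors' deposited table holds 1 comparison as a mean over libraries, a log2 fold change, its standard error (SE) and p-values, with no value per library. It names neither the factor compared nor the sign of the fold change, so each gene is described below as higher on the positive or on the negative side, with no temperature or treatment given to either. A gene is called when the authors' adjusted p is under 0.05. The means of all genes sum to 4719004 normalised reads, and the depth of single libraries is unknown. In bulk tissue, fewer cells of a type and less RNA per cell cannot be told apart.

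Juvenile hormone is a sesquiterpenoid of the corpus allatum, a small endocrine gland. The mevalonate pathway supplies farnesyl diphosphate, which is turned into farnesoic acid and its relatives, and a methyltransferase encoded by jhamt forms the methyl ester. The hormone is inactivated by esterases, which remove the methyl ester, and by epoxide hydrolases, which open the epoxide ring, in part in the fat body. In adult females it supports yolk production and egg maturation, and a low level of it is a known feature of reproductive arrest.

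Of the 8 genes, 4 were called, with 2 on each side. Jheh1 and Jheh3 were higher on the positive side, and Jhe and Jheh2 on the negative side. The genes jhamt, Fpps and JhI-26 were tested and not called, and Jhedup had no adjusted p-value, which left 7 tested genes. Among all 11399 tested genes 49.0% were called, made up of 27.0% called positive and 22.0% called negative, so 4 of 7 is near the background and the count itself is no result about these genes. Their median log2 fold change was -0.21, against 0.07 over all tested genes.

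**Figure D1:**
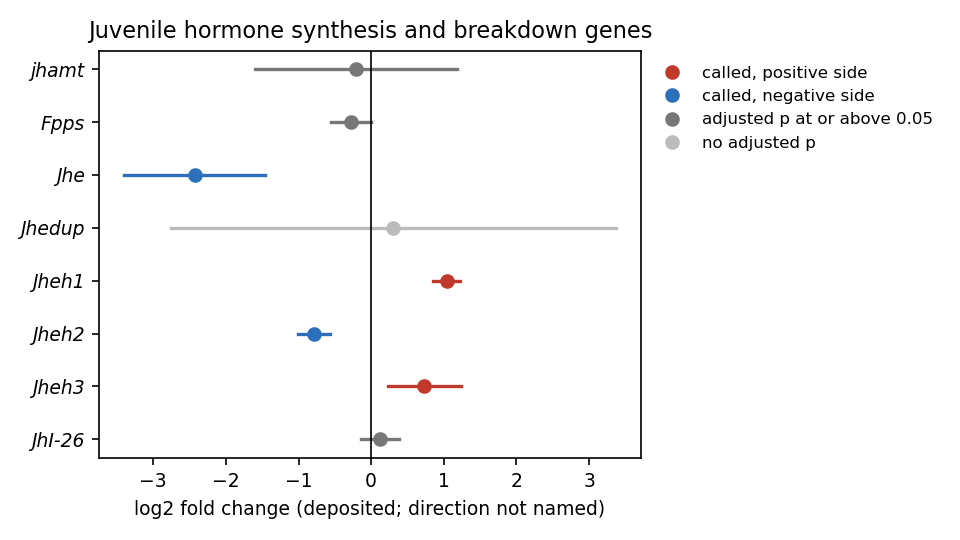
Log2 fold change of the 8 genes in the authors' deposited comparison (x axis), with one gene per line; points are the deposited values and bars 95% intervals from the deposited SE. Jheh1 and Jheh3 lie above 0 and Jhe and Jheh2 below it, while the intervals of jhamt, Fpps, Jhedup and JhI-26 cross 0.

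Levels per kilobase of exon spanned more than 3 orders of magnitude. Values are the mean normalised count of the authors' deposited table divided by exon length in the Ensembl annotation of the dm6 genome. The epoxide hydrolases were the most abundant, with 605 per kb for Jheh3, 502 per kb for Jheh1 and 375 per kb for Jheh2. Fpps followed at 72.7 per kb and JhI-26 at 51.9 per kb. The lowest were jhamt at 10.4 per kb, Jhe at 2.25 per kb and Jhedup at 0.156 per kb. The table gives no spread for these means, so the order of neighbours such as Jheh3 and Jheh1, or Fpps and JhI-26, has no test.

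**Figure D2:**
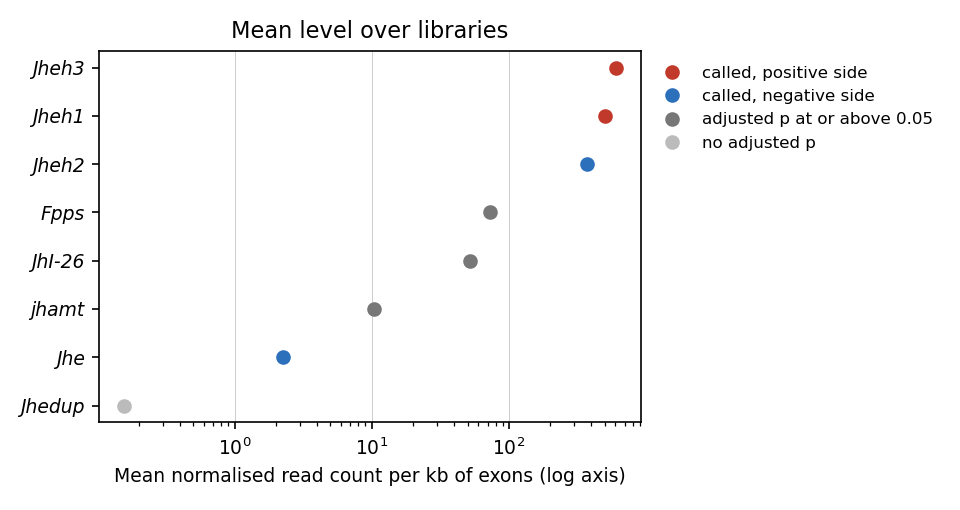
Mean normalised read count per kb of exons (x axis, log scale) for the 8 genes, one per line, coloured by call; the means carry no error bar. The 3 epoxide hydrolase genes lie between 375 and 605 per kb, and jhamt, Jhe and Jhedup at 10.4 per kb or below.

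Among the synthesis genes, neither jhamt nor Fpps was called. The juvenile hormone acid methyltransferase gene jhamt (FBgn0028841, dm6 2L from 16365903 to 16367039, plus strand, protein-coding) had a mean of 11.2 normalised reads in the authors' deposited table. Its log2 fold change there was -0.21 (SE 0.71, adjusted p = 0.832), with a 95% interval from -1.60 to 1.18. A change of up to 3.03-fold towards the negative side or 2.27-fold towards the positive side thus lies within the interval. This SE was wide for the level of the gene: of the 200 genes closest to it in mean, 193 had a smaller SE, and their median SE was 0.31.

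Fpps, which encodes farnesyl diphosphate synthase, the branch point enzyme that also feeds protein prenylation and other isoprenoids (FBgn0025373, dm6 2R from 11305511 to 11307528, minus strand), had a mean of 106 in the authors' deposited table. Its log2 fold change in that deposited table was -0.28 (SE 0.14, adjusted p = 0.0954), with a 95% interval from -0.55 to 0.0031. Measured against the median of all tested genes, the value was -0.35 and passed the threshold (adjusted p = 0.0314). With a trend on exon length and mean removed it was -0.14 (adjusted p = 0.446), so the call depends on the scaling.

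The wider list of mevalonate and isoprenoid genes lay on the negative side. Of 13 tested genes, Fpps among them, 8 were called negative (61.5%, against 22.0% of all tested genes) and 0 positive, and the median log2 fold change was -0.42 against 0.07 over all tested genes. Follicle and germline markers (5 of 8 called negative, median -1.74) and midgut markers (4 of 6, median -1.64) moved to the same side. The most abundant midgut markers, alphaTry at -0.22 (SE 0.19) and betaTry at 0.18 (SE 0.30), were not called. Oenocyte markers gave 3 negative calls and 1 positive one of 8 (median -0.34), with Fad2 at -6.26 (SE 0.75). The part of these cell types in the values of the list was not tested. At the upper end of the pathway the authors' deposited table gave -1.11 for Hmgs, the HMG-CoA synthase (SE 0.13, adjusted p = 9.72e-16). The thiolase genes of the step before it were near 0 and not called, CG9149 at -0.08 (SE 0.13, adjusted p = 0.642) and CG10932 at -0.09 (SE 0.12, adjusted p = 0.526) in the authors' deposited table. In the same deposited table Mvd, the mevalonate diphosphate decarboxylase, stood at -1.41 (SE 0.15, adjusted p = 2.6e-18). Smaller called values in the deposited table were -0.34 (SE 0.10) for Idi, the isopentenyl diphosphate isomerase, and -0.42 (SE 0.17) for CG10268, the phosphomevalonate kinase. The other 4 called genes of the list are not steps of hormone synthesis. betaggt-I at -0.87 (SE 0.10), CG17565 at -0.82 (SE 0.10) and Fnta at -0.54 (SE 0.13) encode subunits of protein prenyltransferases, and Sc2 at -0.63 (SE 0.14) an enoyl-CoA reductase of fatty acid elongation (authors' deposited table).

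Genes that act on the gland's output, such as allatostatin receptors and signalling receptors, gave 7 positive calls and 1 negative one of 17 tested (median 0.58). The share called, 47.1%, was near the 49.0% of all tested genes, and the positive calls numbered 4 with a trend on length and mean removed. Among the positive calls were the allatostatin receptor genes AstA-R1 and AstC-R2, at means of 0.973 and 5.11, and Cyp6g2, given below. At a mean of at least 10, the positive calls numbered 5 of 10 tested. The insulin receptor gene InR stood at 0.51 (SE 0.12), the BMP receptor gene tkv at 0.64 (SE 0.16) and the BMP effector gene Mad at -0.40 (SE 0.07), per the authors' deposited table. These genes act in many tissues, and the gland itself was not sampled. Of 3 measured genes listed as markers of the corpus allatum, 1 was called: Cyp6g2, a cytochrome P450 gene, at 0.89 (SE 0.24, adjusted p = 0.000748) on a mean of 36.7 in the authors' deposited table. The allatostatin C receptor gene AstC-R1, in the same list, was near the bottom of the range at a mean of 0.752 in the deposited table. Whether RNA of the gland is part of the jhamt value was not tested.

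Of the esterase genes, Jhe was called and Jhedup had no deposited adjusted p-value. Jhe, which encodes the juvenile hormone esterase (FBgn0010052, dm6 2R from 16119793 to 16122773, plus strand), had the largest fold change of the 8 genes, -2.43 (SE 0.50, adjusted p = 6.24e-06) in the authors' deposited table. That is 5.38-fold higher on the negative side, with a 95% interval on the log2 scale from -3.40 to -1.45. Of all tested genes, 96.4% had a smaller absolute fold change. The level behind it was low, a mean of 4.73 normalised reads in the authors' deposited table. Of the 200 genes closest to it in mean, 139 had a smaller SE, with a median of 0.43, and 51.5% were called.

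Jhedup, the duplicate copy (FBgn0034076, dm6 2R from 16117109 to 16119149, plus strand), ends 643 bases before Jhe starts. It had a mean of 0.274 normalised reads in the authors' deposited table and a log2 fold change of 0.31 (SE 1.56), with a 95% interval from -2.76 to 3.37. A difference between the sides was not detectable at this depth. The difference Jhedup minus Jhe was 2.74 on the log2 scale, and its 95% interval held 0 with independent errors (-0.48 to 5.95) and with the widest error any correlation allows (-1.30 to 6.77). The copies are therefore not shown to differ.

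Other carboxylesterase genes were called in both directions. Without Jhe and Jhedup, 19 were tested, with 8 negative calls and 6 positive ones (73.7% called, against 49.0% of all tested genes, median -0.42). In the alpha-esterase cluster the authors' deposited table gave -1.37 (SE 0.16) for alpha-Est2 and -1.31 (SE 0.19) for alpha-Est10. Of the other alpha-esterase genes, alpha-Est1, alpha-Est5 and alpha-Est8 were also called negative. By contrast, alpha-Est9 was called positive at 0.60 (SE 0.19), and alpha-Est6 and alpha-Est7 were not called. The gene clt stood at -0.55 (SE 0.08) in the deposited table and Est-6, which encodes a secreted esterase, at -0.75 (SE 0.16). Called on the other side in the authors' deposited table were CG10175 at 1.97 (SE 0.27) and Ace, the acetylcholinesterase of nerve synapses, at 1.57 (SE 0.24). With Ace moved the neuron markers, of which 6 of 7 had positive calls (median 1.58), and their part in its value was not tested.

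The 3 epoxide hydrolase genes lie in tandem on the minus strand of 2R within 8645 bases, and adjacent genes were called in opposite directions. Jheh1 (FBgn0010053, dm6 2R from 18853434 to 18855087) was higher on the positive side at 1.04 (SE 0.09, adjusted p = 1.97e-26), a 2.05-fold difference, on a mean of 745 in the authors' deposited table. Jheh2 (FBgn0034405, dm6 2R from 18855767 to 18858245), which lies 679 bases further on, was higher on the negative side at -0.79 (SE 0.11, adjusted p = 4.63e-11), a 1.72-fold difference, on a mean of 722 in that deposited table. Jheh3 (FBgn0034406, dm6 2R from 18860375 to 18862078) lies 2129 bases beyond and was higher on the positive side at 0.73 (SE 0.26, adjusted p = 0.0117), a 1.66-fold difference, on a mean of 954 in the authors' deposited table.

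The interval of the difference between the middle gene and each outer one lay above 0, even with the widest error that any correlation between genes allows. Jheh1 minus Jheh2 was 1.82 on the log2 scale, with a widest 95% interval from 1.42 to 2.23. Jheh3 minus Jheh2 was 1.52, with a widest interval from 0.79 to 2.25. Jheh1 minus Jheh3 was 0.31, and both its interval for independent errors (-0.23 to 0.85) and its widest one (-0.38 to 0.997) held 0, so the outer genes were not shown to differ from each other. These are 3 differences with no p-value, since the table does not give the correlation of errors between genes.

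**Figure D3:**
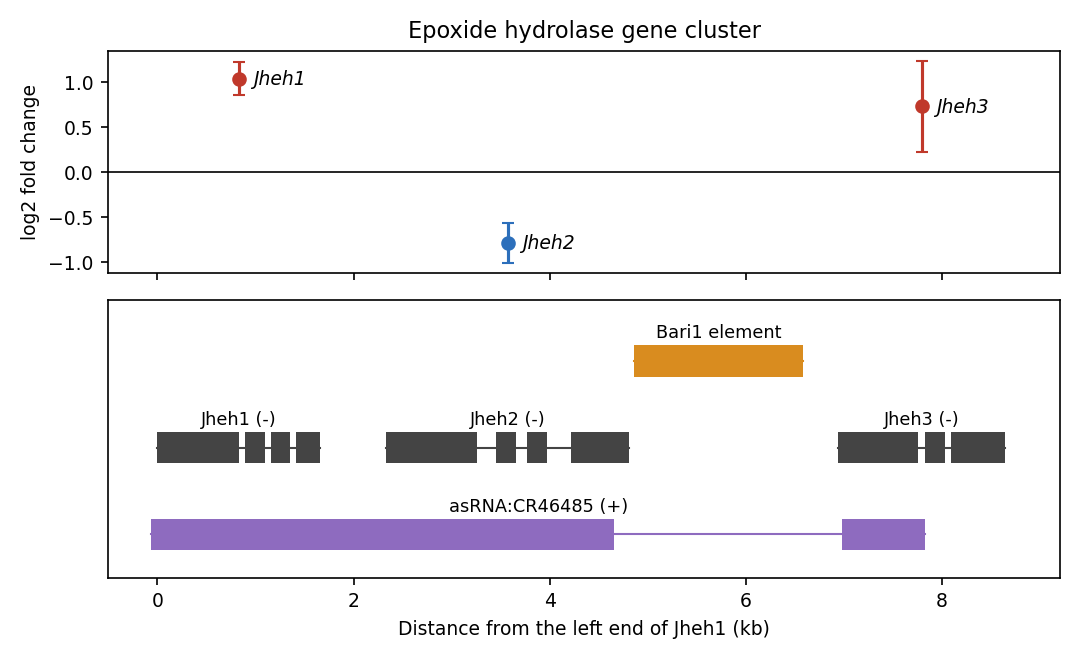
The Jheh cluster. Top, log2 fold change in the authors' deposited table with 95% intervals, at the middle of each gene; bottom, annotated exons (boxes) against distance in kb from the left end of Jheh1, with the Bari1 element in orange and the antisense RNA in purple. Jheh2, between the other 2 genes, is the only one of the 3 below 0.

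The precision of the 3 genes was unequal. Jheh3 had an SE of 0.26 in the authors' deposited table, and 181 of the 200 genes closest to it in mean had a smaller one (median 0.13). Jheh1 was among the more precise genes of its level, with 40 of 200 below its SE, and Jheh2 had 68 of 200 below. As values per library are not given, whether a few libraries set the SE of Jheh3 cannot be seen. Its adjusted p of 0.0117 was the largest of the 4 called genes and does not pass a threshold of 0.01.

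**Figure D4:**
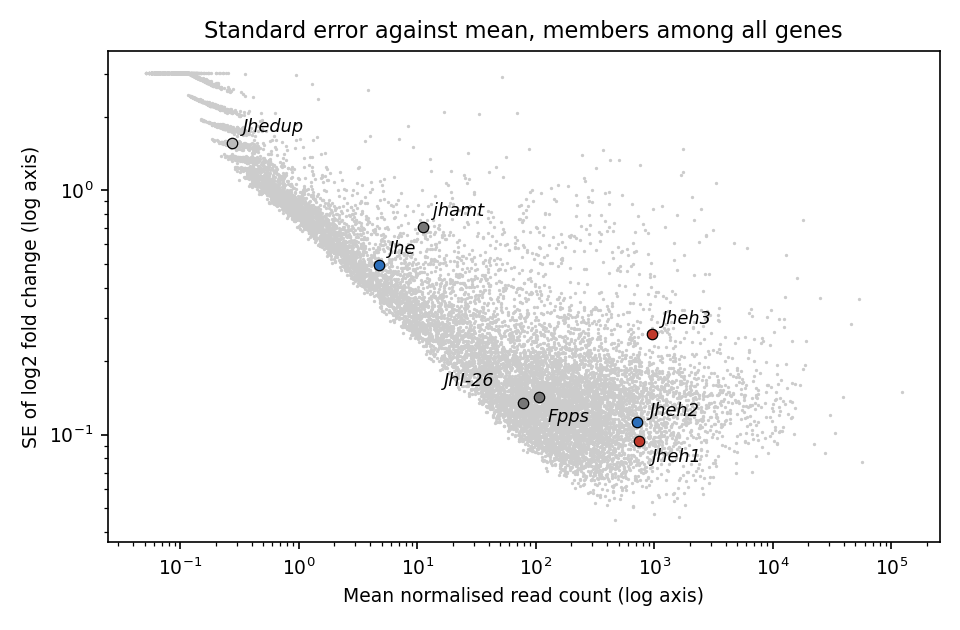
SE of the log2 fold change (y axis, log scale) against mean normalised count (x axis, log scale) for every gene with a p-value (grey) in the authors' deposited table, with the 8 genes marked and coloured by call. Jheh3 and jhamt lie above most genes of like mean, at SEs of 0.26 and 0.71, while Jheh1 and Jheh2 lie below the median of theirs.

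Annotated features overlap the cluster. The antisense RNA gene asRNA:CR46485 runs along the plus strand from 18853372 to 18861263 and shares 100% of the exon bases of Jheh1, 91.6% of those of Jheh2 and 49.5% of those of Jheh3. No row of the authors' deposited table was matched to asRNA:CR46485, so its level is unknown. The sources used here do not say whether reads were counted by strand, so sense and antisense reads over these genes cannot be told apart. A Bari1 transposable element is annotated in the reference genome between Jheh2 and Jheh3, from 18858291 to 18860019. Whether these w1118 flies carry it was not tested. Outside the cluster the nearest measured gene on the side of Jheh1, CG18190, lies 390 bases away and was called on the negative side at -1.08 (SE 0.47, adjusted p = 0.0465) in the authors' deposited table. On the side of Jheh3, CG43069 had a mean of 0.575 in the deposited table and was not called. Further out on that side, CG43071 had a mean of 17.0 in the deposited table. It was called on the negative side at -1.29 (SE 0.34, adjusted p = 0.000581).

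The hormone-inducible gene JhI-26 was not called. JhI-26 (FBgn0028424, dm6 2R from 16289320 to 16291333, plus strand) was found as a transcript that juvenile hormone raises in cultured Drosophila cells. Its mean was 77.7 and its log2 fold change 0.12 (SE 0.13, adjusted p = 0.483) in the authors' deposited table. The 95% interval, from -0.15 to 0.38, reaches a 1.30-fold change towards the positive side. An antisense RNA gene, asRNA:CR43730, covers 70.5% of its exon bases on the other strand and had a mean of 2.45 in the authors' deposited table. Its part in the JhI-26 value was not tested.

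JhI-26 belongs to a large family of kinase-like proteins related to ecdysteroid kinases, and other members were called in both directions. Without JhI-26, 45 were tested, with 16 positive calls and 10 negative ones (57.8% called against 49.0% of all tested genes, median 0.34). The authors' deposited table gave 3.02 (SE 0.24) for CG31300 and 2.94 (SE 0.28) for CG31104. At the other end of that deposited table stood CG14314 at -4.35 (SE 0.34) and CG10550 at -1.75 (SE 0.18). Of the receptor and response genes other than JhI-26, 5 of 11 had positive calls and 2 negative ones (63.6% called, against 49.0% of all tested genes). With a trend on length and mean removed, the positive calls numbered 3. With tested genes split evenly into 5 bins by exon length, the 5 genes with positive calls fell in the longest bin. There 44.5% of genes were called positive and 7.04% negative. The receptor genes gce at 1.08 (SE 0.14) and Met at 0.64 (SE 0.11) were called positive in the authors' deposited table. So was the coactivator gene tai at 0.52 (SE 0.15). The nuclear receptor genes ftz-f1 at 0.70 (SE 0.15) and Hr39 at 0.85 (SE 0.11) were also called positive. Kr-h1, a response gene, was called negative there at -0.85 (SE 0.28, adjusted p = 0.00588). RNaseZ, also known as JhI-1 and likewise described as hormone-inducible, stood at -0.84 (SE 0.11, adjusted p = 4.82e-14) in the deposited table, against 0.12 for JhI-26. JhI-21, a further gene of this list, stood at -0.17 (SE 0.16, adjusted p = 0.393) and, like JhI-26, was not called.

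The takeout family, whose members resemble the juvenile hormone binding proteins of moths, lay on the positive side. Of 25 tested genes, 11 were called there and 0 on the negative side, with a median log2 fold change of 0.88 against 0.07 over all tested genes. The share called was thus 44.0%, all positive, where 27.0% of all tested genes were called positive and 22.0% negative. Among them the authors' deposited table gave 1.79 (SE 0.18) for CG11852 and 2.54 (SE 0.37) for CG1124. It also gave 2.11 (SE 0.34) for CG16820 and 4.49 (SE 0.74) for CG34316, the latter on a mean of only 3.92 in the deposited table. Of the most abundant members, CG8997 at 0.39 (SE 0.50) and CG7953 at -0.38 (SE 0.61) were not called in the authors' deposited table. Several members are known from head and antennal tissue. Neuron markers moved to the same side, as given above for Ace, with means in the deposited table from 5.24 for brp to 315 for cpx. Muscle markers (5 of 8 called positive, median 0.92) and hemocyte markers (4 of 6, median 0.70) did so too. Of the hemocyte markers, Hml at -0.07 (SE 0.27) and He at 0.33 (SE 0.23) were not called. The part of these cell types in the takeout values was not tested.

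**Figure D5:**
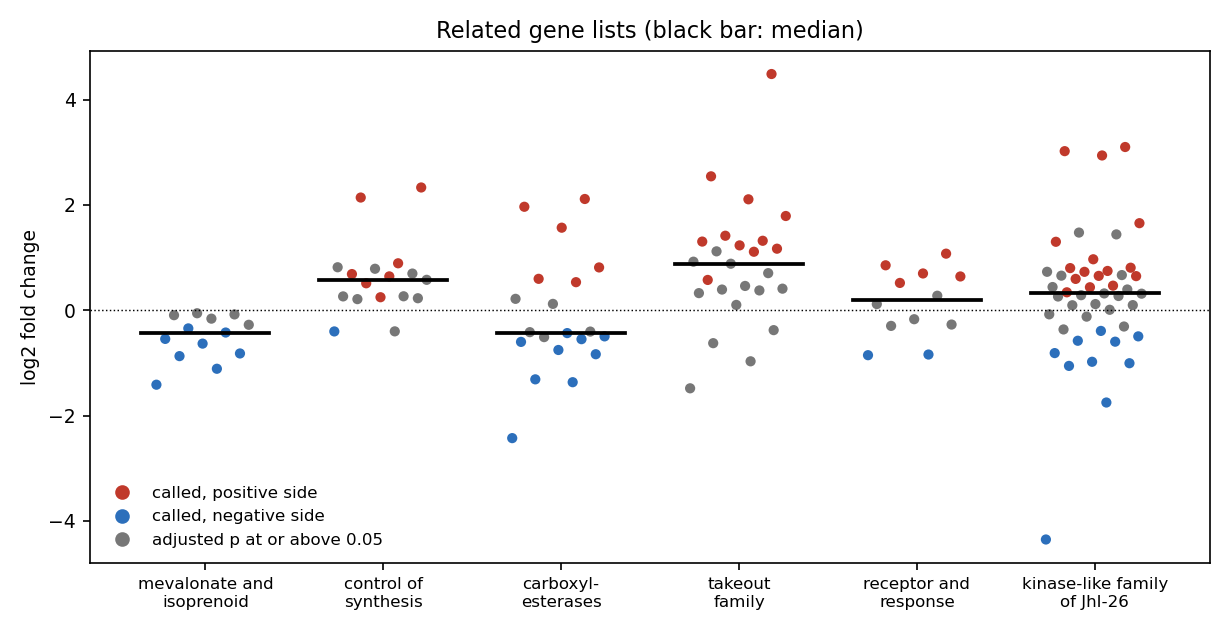
Log2 fold change in the authors' deposited table (y axis) of each tested gene in 6 lists around juvenile hormone (x axis), coloured by call, with a black bar at the median. The mevalonate list has calls below 0 alone and the takeout list calls above 0 alone, while esterase and kinase-like genes are spread on both sides.

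The tissue was checked on marker lists. Most fat body markers were abundant. Means in the authors' deposited table were 18112 for the lipophorin gene apolpp and 19175 for the fatty acid synthase gene FASN1. Low means were found for Fbp1 at 3.38 and Lsp2 at 8.37 in the deposited table. Of the 11 fat body markers, 3 were called on each side (median 0.02). Oenocyte markers had a median of 12715 in the deposited table, against 1051 for fat body markers, and reached 123338 for Cyp4g1 (1 of 8 called positive, 3 negative), and midgut markers reached 18683 for alphaTry (0 positive and 4 negative of 6). Follicle and germline markers gave 0 positive and 5 negative of 8, muscle markers 5 and 0 of 8, and hemocyte markers 4 and 0 of 6. The part of these cell types in the values of the 8 genes was not tested. Fold changes also went with exon length, the bases covered by all annotated exons of a gene. With tested genes split evenly into 5 bins by exon length, medians on the log2 scale ran from -0.13 for the shortest to 0.35 for the longest. The 7 tested genes fell in the second bin (jhamt, Fpps, Jheh1, Jheh3 and JhI-26), where 20.4% of genes were called positive and 30.6% negative, and in the third (Jhe and Jheh2), where 24.6% and 28.2% were.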

How the data were processed

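The submitters' processing notes name DESeq2, Bowtie2, Picard, SAMtools, Trim Galore, cutadapt and FastQC and the build dm6. The read counter, the strand setting, the annotation and all versions are not stated there. The authors deposited, per the file headers, a mean normalised count per gene (a signal with no error), a log2 fold change with its SE, a test statistic (a score equal to their ratio), and a p-value with its Benjamini-Hochberg adjusted p-value, over 11399 genes. The p-values measure the spread between libraries in the authors' fit, and whether libraries came from separate cohorts is not stated. No counts or values per library were used, so the count tests planned for that case were not run.

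From these values, 95% intervals (fold change ± 1.96 SE), levels per kb, list counts and medians, differences between genes and the alternatives were computed (pandas 2.3.3, scipy 1.17.1, statsmodels 0.14.6). The adjustment and the trend removal were tested on simulated data, which had a trend on length alone and far fewer changed genes than were called here. How the trend removal acts on the real values was therefore not tested. Of 13234 symbols, 12521 matched the Ensembl annotation of the dm6 genome directly and 13185 with RefSeq synonyms. The members, the 6 pathway lists and the 8 marker lists were chosen with earlier results of these data known, and lists are described, not tested. CG6667 was left out of the takeout list because it is another gene, and 1 other listed gene is not reported here. Of each list, up to 4 genes of smallest adjusted p could be named. Other named genes were chosen after their values were seen. Among them are Idi, CG10268, CG9149, CG10932, Fnta, Sc2, AstA-R1, AstC-R1, AstC-R2, alpha-Est9, Est-6, Ace, tai, ftz-f1, Kr-h1, JhI-21, Hml, He, Fbp1, Lsp2 and Scp2.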

Additional observations from a re-analysis of the deposited data

How the results depend on the processing

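Alternative call rules were another threshold, adjustment over all genes with a p-value, a minimum mean, a minimum fold, centring on the median of all tested genes (0.07), and removal of a trend on length and mean. Of 53 member values under these, 48 kept their direction and side of the threshold, 3 lost a call, 2 gained one and 0 reversed. Members called on the positive side numbered 1 in place of 2 at a threshold of 0.01 and at 2-fold, and those on the negative side 1 in place of 2 at a mean of at least 10, at a mean of at least 100 (Jhe is then not tested) and at 2-fold. Fpps was called at a threshold of 0.1 and after centring. At 2-fold, mevalonate calls fell to 2 negative, receptor and response calls to 1 positive and 0 negative, synthesis control calls to 2 and 0, carboxylesterase calls, with Jhe counted, to 3 positive and 3 negative in place of 6 and 9, and kinase-like calls to 5 and 4. At a mean of at least 100, receptor and response genes gave 1 negative, synthesis control genes 3 positive, takeout genes 2 positive, carboxylesterases 3 positive and kinase-like genes 5 negative, with fewer genes tested; at a mean of at least 10 the takeout list gave 7 positive. With the trend removed, receptor and response genes gave 3 positive, synthesis control genes 4 positive and takeout genes 1 negative. At a threshold of 0.1 the takeout list gained 1 negative call. Restricting the takeout list to the 15 tested genes that RefSeq names JHBP, an alternative chosen after seeing the data, left 8 positive and 0 negative. No paired analysis was possible because the table holds no values per library; for the same reason no replicate could be left out. The low means of Jhe, Jhedup and jhamt limit what their values can show.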

Other observations

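A further gene, Scp2, carries the RefSeq synonym JHDK, for juvenile hormone diol kinase, an activity that phosphorylates the diol formed by the epoxide hydrolases. Its link to hormone breakdown rests here on that synonym and was not tested. Scp2 was chosen after its value was seen. Scp2 (FBgn0020907, dm6 3R from 16574543 to 16583663, minus strand) stood at -1.09 on the log2 scale (SE 0.19, adjusted p = 6.43e-08), with a mean of 292, in the authors' deposited table, a 2.13-fold difference. It thus had the sign of Jhe and Jheh2, and the opposite sign of Jheh1 and Jheh3. Of the 200 genes closest to Scp2 in mean, 166 had a smaller SE (median 0.12).

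Genes next to the 8 members were called about as often as other genes. Of 29 tested genes among the 3 nearest measured ones on each side, 13 were called (44.8%), 6 of them positive and 7 negative, against 49.0% over all tested genes. With the 5 nearest on each side it was 43.5% of 46. Beside Jhe and Jhedup, the aspartate beta-hydroxylase gene Asph stood at 0.86 (SE 0.25) and the aminotransferase gene Got1 at 0.96 (SE 0.14) in the authors' deposited table, both opposite in sign to Jhe, and CG30094 at -0.81 (SE 0.14) with the sign of Jhe. Beside jhamt, which has no measured gene within 9167 bases, CaBP1 stood at -0.46 (SE 0.12) and CG5888 at -0.90 (SE 0.17) in the deposited table.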
